A study of Mus musculus with 12 samples.

Results

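Glucocorticoid-induced muscle genes are transcripts that the stress hormones of the adrenal cortex raise in skeletal muscle. Here 10 named genes were followed, namely the targets Tsc22d3, Fkbp5, Ddit4, Cebpd, Cebpb, Klf9, Klf15, Sgk1 and Zbtb16, and the receptor gene Nr3c1. Nr3c1 is counted among the 10 but was not taken as a target. Each gene was read from its brightest probe set (a set of short oligonucleotides for 1 transcript) by the mean over all arrays. All 10 were bright enough to be tested, among 11345 tested genes. The series holds skeletal muscle RNA of 12 mice, each on 1 Affymetrix array, with 3 mice per group. The groups were wild-type (WT) and GPR120 knockout (KO) mice, each on a normal diet (ND) or a high fat diet (HFD). All were 16 weeks old and of a mixed 129/Sv and C57BL/6 background, and no other allele or agent is given in the sources used here. GPR120 is the product of Ffar4, a membrane protein that senses long-chain fatty acids. The series title names diet-induced obesity, so the question for these genes is whether they changed with the diet, and whether that depended on the receptor.

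Glucocorticoids, mainly corticosterone in mice, enter the cell and bind the glucocorticoid receptor, which is held in the cytosol by the chaperone Hsp90. The loaded receptor moves to the nucleus, binds response elements in DNA and raises or lowers the genes nearby. In muscle the response slows protein synthesis, favours protein breakdown and frees amino acids as fuel, as in fasting or stress. Hormone levels follow the time of day and feeding, and many of the genes answer to other signals too: Ddit4 to hypoxia and energy stress, Cebpd and Cebpb to cytokines. The sources used here do not state hormone levels, sex, muscle site or the hour of dissection. In whole muscle, fewer cells of a type and less RNA per cell cannot be told apart.

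Promoter sequences show which of the genes carry the receptor's recognition letters close to a start site. RefSeq promoter windows (build GRCm38.p6) matched 7 of the 10 genes, with 14 windows in all, since some genes have several start sites. In each, the 250 bases before the start were searched on both strands. The full palindromic glucocorticoid response element, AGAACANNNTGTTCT, stood in 1 of the 14 windows, that of an Sgk1 start site, and in 3 of 32851 windows of all genes (0.00913%). Its relaxed core, GNACANNNTGTNC, which the full element contains, stood in that window and in 0.387% of all windows. The half-site AGAACA, also part of the full element, stood in 4 windows of Sgk1 and Tsc22d3, 3 and 1 respectively, and in 16.1% of all. The E-box CACGTG, read by clock proteins and other helix-loop-helix factors, stood in windows of Klf15, Fkbp5 and Sgk1 and in 6.02% of all. The FoxO motif GTAAACA stood in the Klf9 window and in 3.17% of all, and the C/EBP palindrome TTGCGCAA in 0 of the 14 and in 0.164% of all. One window per matching gene is printed, to show where these letters lie, with the matches in capitals and the base before the start site last.
Sgk1, chr10:21993640-21993889, plus strand: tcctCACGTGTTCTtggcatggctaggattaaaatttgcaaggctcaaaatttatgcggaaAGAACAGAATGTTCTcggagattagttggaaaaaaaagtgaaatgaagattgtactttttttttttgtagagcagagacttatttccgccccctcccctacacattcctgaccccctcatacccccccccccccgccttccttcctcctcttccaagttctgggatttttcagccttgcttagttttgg
Tsc22d3, chrX:140600523-140600772, minus strand: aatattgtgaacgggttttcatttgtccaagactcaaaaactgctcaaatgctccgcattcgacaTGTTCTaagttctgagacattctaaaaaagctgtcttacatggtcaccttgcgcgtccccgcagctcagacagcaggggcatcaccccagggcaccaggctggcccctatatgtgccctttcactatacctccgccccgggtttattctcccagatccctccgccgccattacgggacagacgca
Fkbp5, chr17:28486150-28486399, minus strand: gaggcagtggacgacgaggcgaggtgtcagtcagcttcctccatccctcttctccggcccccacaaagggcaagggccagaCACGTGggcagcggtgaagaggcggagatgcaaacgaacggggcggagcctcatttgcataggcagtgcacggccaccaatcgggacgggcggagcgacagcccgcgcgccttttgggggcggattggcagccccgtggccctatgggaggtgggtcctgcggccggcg
Klf15, chr6:90462326-90462575, plus strand: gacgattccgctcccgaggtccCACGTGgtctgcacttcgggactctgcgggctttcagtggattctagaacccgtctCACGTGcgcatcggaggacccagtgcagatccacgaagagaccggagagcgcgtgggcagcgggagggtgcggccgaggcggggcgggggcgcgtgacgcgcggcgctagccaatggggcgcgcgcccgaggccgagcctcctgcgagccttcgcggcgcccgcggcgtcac
Klf9, chr19:23140976-23141225, plus strand: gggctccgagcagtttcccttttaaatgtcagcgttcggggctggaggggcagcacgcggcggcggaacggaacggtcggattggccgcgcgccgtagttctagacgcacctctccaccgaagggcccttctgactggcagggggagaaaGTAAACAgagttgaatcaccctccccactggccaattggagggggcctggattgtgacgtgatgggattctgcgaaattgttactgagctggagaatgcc
In the Sgk1 window the full element spans positions −189 to −175 from the start, and a further half-site overlaps the E-box near the distal end. A match describes letters only. The arrays do not show which start site was used, and elements farther away were not searched.

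Before the results, 4 facts of the arrays bear on them. Tested genes correlated between an array and the others of its group at a mean r of 0.966 to 0.975, as a description over genes. Ffar4 could not check the genotype labels, since its only probe set averaged 1.61, below the signal filter of 3.78 on the log2 scale. Muscle markers such as Acta1, Ckm and Myh4 were bright in all groups, with a summed linear signal of 102886 to 130389 over the 10 markers. The 3′ over 5′ log2 ratio of the beta-actin and Gapdh controls, a sign of RNA integrity, was higher in mean on the high fat diet. It was −0.02 ± 0.09 in WT on normal diet and 0.18 ± 0.02 on high fat diet, and 0.07 ± 0.06 and 0.16 ± 0.13 in KO (SD, n = 3), where the diets overlapped.

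On the high fat diet, the glucocorticoid-response genes were lower in both genotypes, and the receptor gene was not among them. In WT 9 of the 10 fell at an adjusted p under 0.05 in limma, a linear model fitted to all genes with Benjamini-Hochberg adjustment, where 2.99% of all tested genes were called lower. In KO 6 fell, where 1.88% of all were called lower, and the other 3 targets, Klf15, Sgk1 and Zbtb16, were lower in mean without passing. No member rose in either genotype, where 3.07% of all genes in WT and 2.66% in KO were called higher. The median log2 difference over the 10 was −1.13 in WT and −0.84 in KO, beside 0.04 and 0.05 over all tested genes. In each genotype the values of the 2 diets did not overlap for 9 of 10 members, all lower on the high fat diet, against 11.1% of all genes in WT and 10.2% in KO. The 10 genes were chosen with earlier results of these data known, so their counts beside these shares are not independent evidence. The WT mice on normal diet and those on high fat diet come from different number ranges in the labels, as do the KO mice, so diet and genotype cannot be told apart from cohort.

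**Figure D1:**
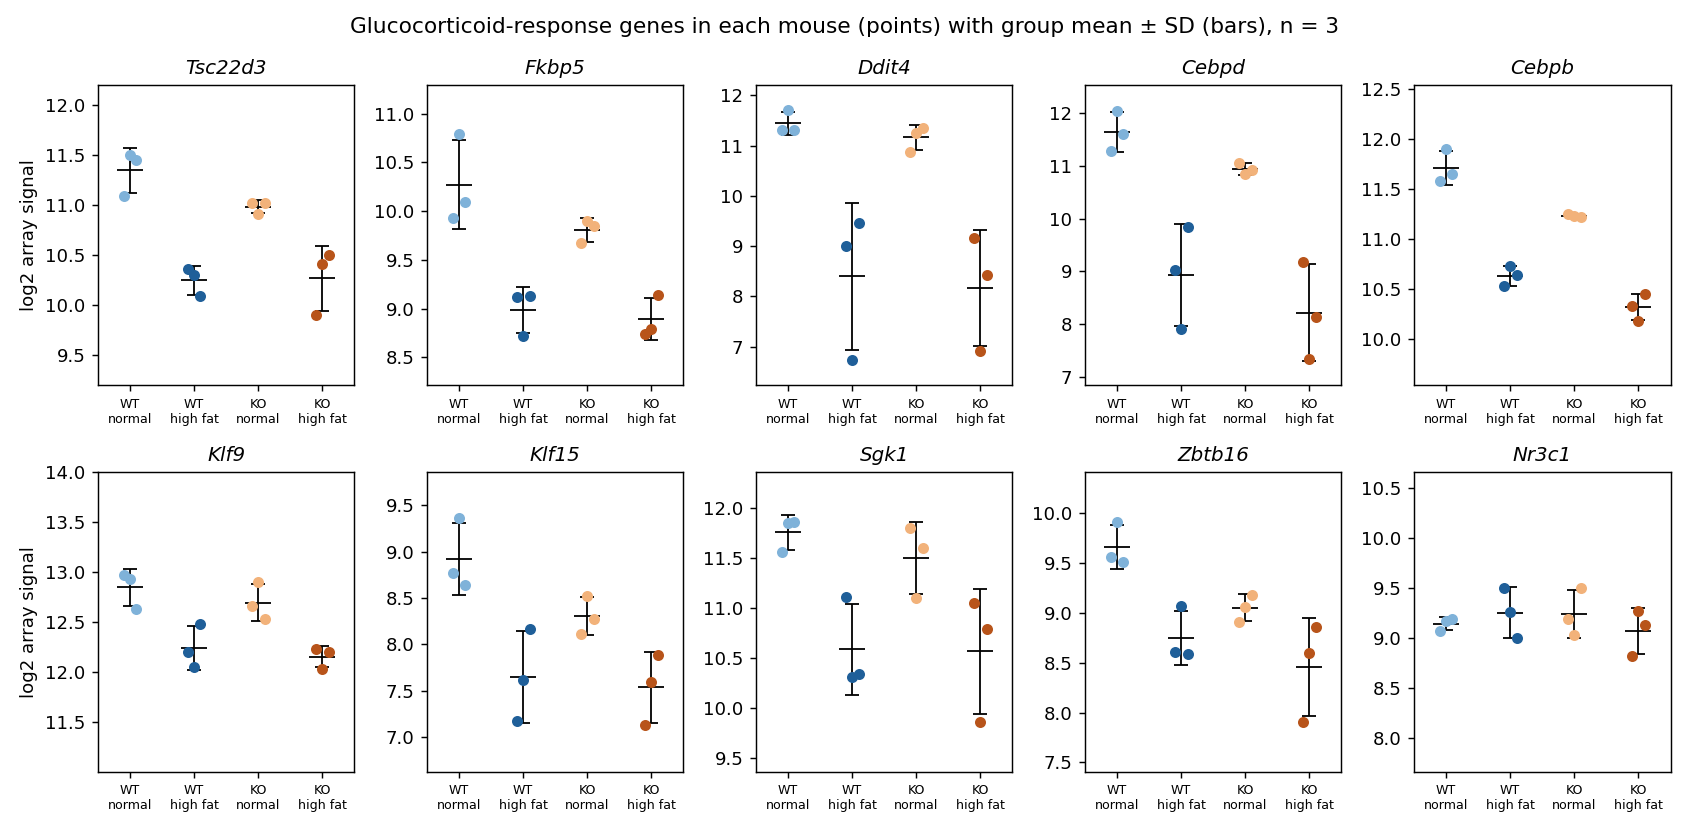
Log2 array signal of the 10 genes (vertical axis, one panel per gene, at least 3 log2 units tall) in each of the 12 mice, by genotype and diet; bars are the group mean ± SD, n = 3. In 9 panels both high fat groups lie below the normal diet group of their genotype, while Nr3c1 overlaps in all 4 groups.

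The receptor itself stands first in the pathway, and its transcript did not pass in either genotype. Nr3c1 read 9.07, 9.17 and 9.19 in WT on ND and 9.51, 9.26 and 9.004 on HFD. In KO it read 9.19, 9.03 and 9.50 on ND and 8.82, 9.27 and 9.13 on HFD. All 4 groups overlapped. Its diet difference was 0.11 in WT (95% interval −0.22 to 0.44) and −0.16 in KO (−0.50 to 0.17), so a change within these bounds cannot be told from none (limma adjusted p = 0.722 and 0.599). Its other bright probe sets, at means of 8.36 and 8.33, differed by diet by 0.09 and −0.13 in WT and by 0.01 and 0.01 in KO.

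Fkbp5 and Tsc22d3 are the most used readouts of receptor activity, and both were lower on the high fat diet. Fkbp5 encodes an Hsp90 co-chaperone that lowers the receptor's affinity for its hormone. It read 9.93, 10.79 and 10.09 in WT on ND and 9.12, 8.72 and 9.13 on HFD, and fell by 1.28 on the log2 scale (SE 0.20, limma adjusted p = 0.00313). In KO the values were 9.67, 9.90 and 9.85 on ND and 8.74, 8.79 and 9.14 on HFD, and fell by 0.91 on the log2 scale (SE 0.20, limma adjusted p = 0.0218). Every mouse on high fat diet was below every mouse on normal diet, with WT replicate 2 on normal diet the highest of all. Tsc22d3 encodes GILZ, a leucine zipper protein that carries part of the anti-inflammatory action of glucocorticoids. It read 11.09, 11.51 and 11.45 in WT on ND and 10.37, 10.30 and 10.09 on HFD, and fell by 1.10 on the log2 scale (SE 0.15, limma adjusted p = 0.00128). In KO it read 11.03, 10.91 and 11.02 on ND and 9.90, 10.41 and 10.50 on HFD, and fell by 0.72 on the log2 scale (SE 0.15, limma adjusted p = 0.0192). Again no mouse on high fat diet reached the level of any mouse on normal diet. On the linear scale these falls were 2.43-fold and 1.88-fold for Fkbp5 and 2.14-fold and 1.64-fold for Tsc22d3, in WT and KO.

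The C/EBP factors, leucine zipper transcription factors that glucocorticoids induce in muscle, differed in how far and how evenly they fell. Cebpb fell less, with the smallest SE of the 10 genes. It read 11.57, 11.89 and 11.65 in WT on ND and 10.53, 10.73 and 10.64 on HFD, and fell by 1.07 on the log2 scale (SE 0.10, limma adjusted p = 8.30e-05). In KO it read 11.25, 11.22 and 11.21 on ND and 10.32, 10.18 and 10.44 on HFD, and fell by 0.91 on the log2 scale (SE 0.10, limma adjusted p = 0.000880). By p-value this placed Cebpb at rank 6 of 11345 genes in WT, rank 4 in KO and rank 2 in the diet effect averaged over genotypes. Cebpd fell farther and unevenly. Its values were 11.29, 12.03 and 11.61 in WT on ND and 9.03, 7.91 and 9.85 on HFD, and fell by 2.71 on the log2 scale (SE 0.44, limma adjusted p = 0.00475). The KO values were 11.06, 10.84 and 10.91 on ND and 9.17, 7.35 and 8.14 on HFD, and fell by 2.72 on the log2 scale (SE 0.44, limma adjusted p = 0.00488). That is 6.55-fold in WT and 6.58-fold in KO, with an SD of 0.97 and 0.91 on high fat diet against 0.37 and 0.11 on normal diet. The second Cebpd probe set, dim at a mean of 5.38, gave −0.07 in WT with overlapping groups and −1.31 in KO without overlap (adjusted p = 0.963 and 0.231), so the Cebpd calls rest on 1 probe set.

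The largest fall belonged to Ddit4, which encodes REDD1, an inhibitor of the growth kinase complex mTORC1. Ddit4 read 11.31, 11.71 and 11.31 in WT on ND and 9.001, 6.74 and 9.47 on HFD, and fell by 3.04 on the log2 scale (SE 0.60, limma adjusted p = 0.0125) or 8.23-fold. In KO it read 10.88, 11.26 and 11.35 on ND and 9.17, 6.91 and 8.43 on HFD, and fell by 2.99 on the log2 scale (SE 0.60, limma adjusted p = 0.0164) or 7.95-fold. The mice on normal diet lay within 0.40 of each other in WT and 0.47 in KO, while those on high fat diet ranged over 2.73 and 2.25. Sgk1, a kinase that controls ion transport and phosphorylates FoxO factors, held the full response element in the window printed above. Its values were 11.56, 11.85 and 11.86 in WT on ND and 11.11, 10.31 and 10.34 on HFD, and fell by 1.17 on the log2 scale (SE 0.28, limma adjusted p = 0.0286). In KO they were 11.80, 11.10 and 11.60 on ND and 11.05, 9.86 and 10.79 on HFD, with a difference of −0.93 that did not pass (SE 0.28, limma adjusted p = 0.0778). The KO groups came close without overlapping, with the lowest normal diet mouse at 11.10 and the highest high fat mouse at 11.05. Ddit4 and Sgk1 each had 1 probe set, so no second reading exists for them.

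The Krüppel-like factors Klf9 and Klf15, zinc finger proteins, were lower by unequal amounts. Klf15, which raises genes for breaking down branched-chain amino acids, read 8.77, 9.36 and 8.63 in WT on ND and 7.17, 7.62 and 8.16 on HFD, and fell by 1.27 on the log2 scale (SE 0.26, limma adjusted p = 0.0142). In KO it read 8.11, 8.52 and 8.27 on ND and 7.12, 7.59 and 7.89 on HFD, a difference of −0.77 that did not pass (SE 0.26, limma adjusted p = 0.110). Klf15 had 1 probe set, so no second reading exists for it either. Klf9 had the smallest fall among the called members. It read 12.97, 12.93 and 12.63 in WT on ND and 12.20, 12.05 and 12.48 on HFD, and fell by 0.60 on the log2 scale (SE 0.13, limma adjusted p = 0.0157). In KO the values were 12.66, 12.90 and 12.53 on ND and 12.23, 12.03 and 12.20 on HFD, and fell by 0.54 on the log2 scale (SE 0.13, limma adjusted p = 0.0302). Of 7 Klf9 probe sets the 6 past the filter were lower in both genotypes, by 0.51 to 1.06 in WT and 0.25 to 1.06 in KO. Zbtb16, which encodes the zinc finger repressor PLZF, read 9.56, 9.92 and 9.51 in WT on ND and 8.60, 9.07 and 8.59 on HFD, and fell by 0.91 on the log2 scale (SE 0.21, limma adjusted p = 0.0242). Its KO values were 8.91, 9.06 and 9.18 on ND and 7.91, 8.60 and 8.86 on HFD, a difference of −0.59 that did not pass (SE 0.21, limma adjusted p = 0.132), while its second probe set fell by 1.05 there (adjusted p = 0.0473) and did not pass in WT (−0.85, adjusted p = 0.0830).

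**Figure D2:**
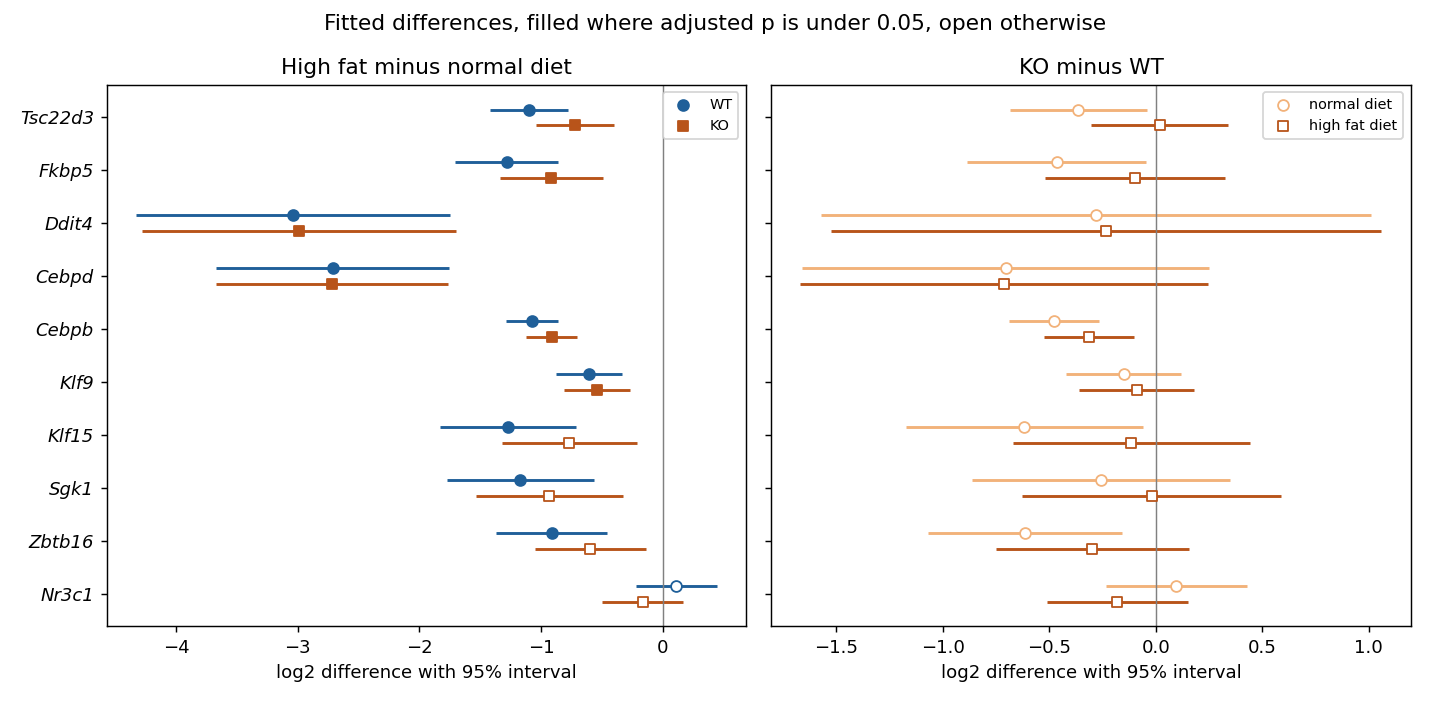
Fitted log2 differences (horizontal axis) with 95% intervals for the 10 genes, on the left high fat minus normal diet in WT (circles) and KO (squares), on the right KO minus WT on normal diet (circles) and on high fat diet (squares). Filled symbols passed an adjusted p of 0.05 in limma: 9 in WT and 6 in KO on the left, 0 on the right.

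Probe sets other than the brightest mostly went the same way. The 10 genes had 30 probe sets, of which 25 passed the filter. Leaving out Nr3c1, 22 passed, and by the sign of the mean all 22 were lower on the high fat diet in WT and 21 in KO. Over all tested genes, each read from its brightest probe set, the median diet difference was 0.04 in WT and 0.05 in KO. The 22 probe sets include the brightest of each gene, which gave the calls above, and falls of any size. The exception was a dim Tsc22d3 probe set at a mean of 4.16, with a KO difference of 0.14. Read from the second probe set, Fkbp5 and Klf9 did not pass in KO (−0.52 and −0.35, adjusted p = 0.290 and 0.139). These probe sets share their mice and their transcripts, so they are not independent readings.

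The calls of Cebpb and Cebpd held in both genotypes, and those of Tsc22d3 and Fkbp5 in WT, when any 1 mouse was left out, while other calls were lost with single mice. In WT the count was 4 without replicate 2 on normal diet, the mouse with the highest values in 7 of the 10 genes. Ddit4, Klf9, Klf15, Sgk1 and Zbtb16 lost their call there (limma adjusted p from 0.0572 to 0.111). Sgk1 also lost its WT call without normal diet replicate 3 or high fat replicate 2 or 3, Zbtb16 without normal diet replicate 3 or high fat replicate 1 or 3, and Klf9 without high fat replicate 2. In KO the count was 2 without replicate 2 on normal diet, where Tsc22d3, Fkbp5, Ddit4 and Klf9 lost their call (adjusted p from 0.0573 to 0.126). Klf9 kept its KO call only when normal diet replicate 3 was the KO mouse left out, Fkbp5 only for normal diet replicate 1 or high fat replicate 3, and Tsc22d3 lost it without normal diet replicate 1 too. With the integrity ratio added as a covariate 4 calls stood in WT, with the same 5 genes lost (adjusted p from 0.0860 to 0.212), and Tsc22d3 and Klf9 lost their KO call (0.0593 and 0.0689). With it the WT differences became −3.20 for Ddit4, −1.23 for Klf15, −1.13 for Sgk1 and −0.61 for Klf9. The difference for Zbtb16 shrank from −0.91 to −0.75. In WT the ratio was at most 0.09 on normal diet and at least 0.16 on high fat diet. The covariate and the diet are therefore hard to separate there. Without the intensity trend, a prior spread that depends on brightness, Klf9, Sgk1 and Zbtb16 lost their WT call and the KO count was 2, Cebpd and Cebpb. In KO, Klf9 lost its call with no signal filter (adjusted p = 0.0503), and Sgk1 passed with array weights (−0.91, adjusted p = 0.0439).

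Averaged over genotypes, 9 of 10 members fell, beside 6.19% of all tested genes called lower. The differences ran from −0.57 for Klf9 (SE 0.09, limma adjusted p = 0.00139) to −3.02 for Ddit4 (SE 0.42, adjusted p = 0.000797). For 6 members every one of the mice on high fat diet was below every mouse on normal diet, whatever the genotype, against 2.34% of all genes. These were Tsc22d3, Fkbp5, Ddit4, Cebpd, Cebpb and Klf9. Klf15, Sgk1 and Zbtb16 overlapped across genotypes. Nr3c1 was at −0.03 (95% interval −0.26 to 0.21). With the integrity ratio as covariate 6 calls remained, while Klf15 was at −0.99 (adjusted p = 0.0568), Sgk1 at −1.02 (0.0698) and Zbtb16 at −0.63 (0.116). Read from its second probe set, Cebpd did not pass either (−0.69, adjusted p = 0.293).

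The size of the diet difference was not shown to depend on genotype. In the test of that difference (the diet effect in KO minus that in WT) 0 of 10 members passed in limma, 0 had an unadjusted p under 0.05, and 0.141% of all genes were called. Tsc22d3 had the smallest p, with 0.38 (95% interval −0.07 to 0.83, adjusted p = 0.546), followed by Klf15 with 0.50 (−0.28 to 1.29, adjusted p = 0.664) and Fkbp5 with 0.37 (−0.23 to 0.97, adjusted p = 0.674). For Ddit4 the interval ran from −1.78 to 1.87 and for Cebpd from −1.36 to 1.35. It was tightest for Cebpb, at −0.14 to 0.46. These intervals leave room for differences of the size of many of the effects themselves, and they do not show that the genotypes respond alike.

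On the normal diet, KO muscle had lower means than WT for 9 of the 10 genes, but no member passed. The median over the 10 was −0.41, beside 0.02 over all genes, of which 46.7% were lower in mean. Limma called 0 of 10 at an adjusted p of 0.05, where 0.414% of all genes were called. Unadjusted, 5 members had p under 0.05, against 11.3% of all genes. Cebpb was closest, at −0.48 (SE 0.10, adjusted p = 0.0556); its 3 KO mice, all between 11.21 and 11.25, lay below the lowest WT mouse at 11.57. Zbtb16 was 0.61 lower (SE 0.21, adjusted p = 0.278), Klf15 0.62 lower (SE 0.26, adjusted p = 0.381) and Cebpd 0.70 lower (SE 0.44, adjusted p = 0.603). These SEs draw on the spread in all 4 groups. For Cebpd the SD was 0.97 in WT and 0.91 in KO on high fat diet, against 0.37 and 0.11 on normal diet. Its SE therefore does not measure the spread of the normal diet mice alone. The genotypes did not overlap on this diet for 6 members, Tsc22d3, Fkbp5, Cebpd, Cebpb, Klf15 and Zbtb16, all lower in KO, against 7.72% of all genes. Nr3c1 was 0.10 higher (adjusted p = 0.879). Macrophage markers were lower in KO on this diet as well, with 9 of 9 lower in mean, 0 called, 6 not overlapping and a median of −0.59, and their part in the member differences was not tested. This comparison and the WT diet effect share the WT mice on normal diet, so high values in those mice enter both.

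On the high fat diet no member passed between genotypes either. The median over the 10 was −0.15 and limma called 0 of 10, where 0.732% of all genes were called; 1 member, Cebpb, had an unadjusted p under 0.05, against 14.8% of all genes. Cebpb was at −0.31 (SE 0.10, adjusted p = 0.142) and was the 1 member whose genotypes did not overlap, with KO lower, against 8.39% of all genes. Cebpd was at −0.71 (SE 0.44, adjusted p = 0.485). The other 8 lay between −0.30 and 0.02. Several of these intervals were wide, for Ddit4 from −1.52 to 1.06.

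**Figure D3:**
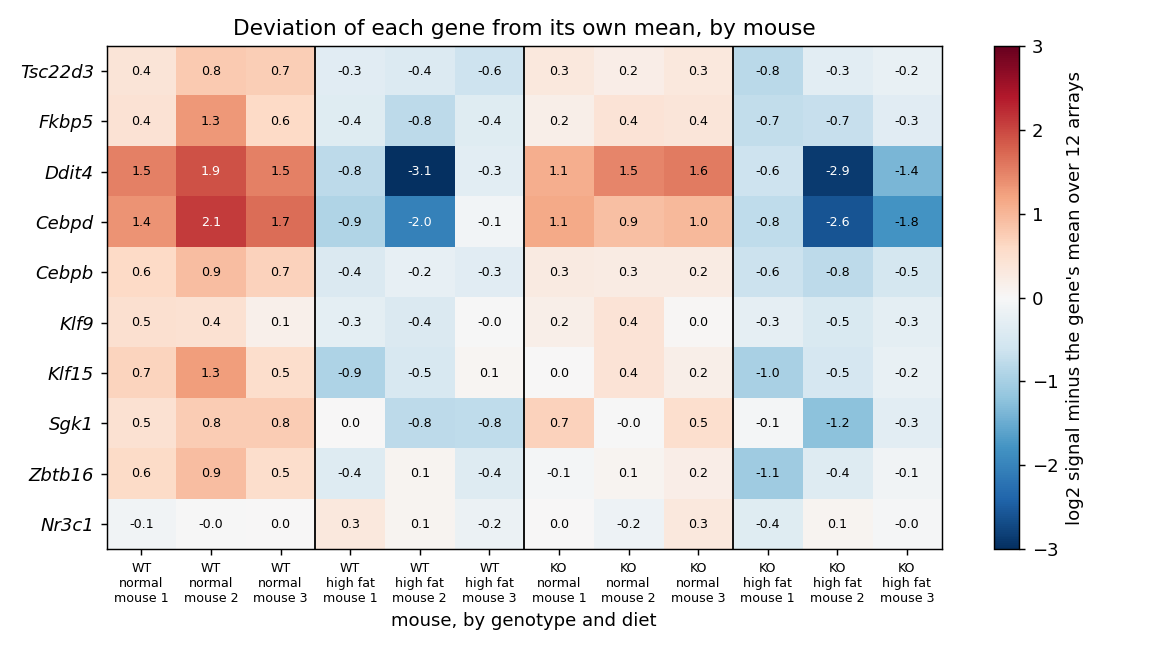
Log2 signal of each gene (rows) in each mouse (columns, 3 per group) minus the gene's mean over the 12 arrays; red is above the mean and blue below. Normal diet columns are mostly red and high fat columns mostly blue, and in the Ddit4 and Cebpd rows replicate 2 of both high fat groups is the darkest blue.

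Mouse by mouse, most of the genes differed in the same direction between diets, but they had no common order within a diet. In each of the 6 mice on normal diet 8 to 10 of the 10 genes were above their own mean, and in each of the mice on high fat diet 8 to 10 were below. The median deviation was 0.53 to 0.93 in WT and 0.23 to 0.33 in KO on normal diet, and −0.46 to −0.33 in WT and −0.70 to −0.30 in KO on high fat diet. Among the 6 mice on high fat diet, Ddit4 and Cebpd had nearly the same order. In both, replicate 2 of each genotype lay lowest, followed by KO replicate 3, WT replicate 1, KO replicate 1 and WT replicate 3. Klf9 had the same order as Cebpd. Cebpb and Zbtb16 ran otherwise and were highest in WT replicate 2. KO replicate 1 was lowest for Tsc22d3, Klf15, Zbtb16 and Nr3c1. This pattern was picked after the values were seen and was not tested.

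Genes outside the set whose values ran most closely beside each member over the 12 arrays are given as a description, with Pearson's r, and all 12 arrays share the diet difference. For Ddit4 these were Gadd45g (0.965), Depp1 (0.964) and Tob2 (0.926). For Cebpd they were Depp1 (0.973), Gadd45g (0.971) and Pla2g4e (0.964), so both members had Gadd45g, a growth arrest gene, and Depp1, a FoxO target, in common. Sgk1 also had Depp1 (0.913), after Aopep (0.914). For Fkbp5 they were Sec24a (0.983), Lrrc58 (0.956) and Peli1 (0.950), and for Tsc22d3 Slc19a2 (0.950), Slc25a33 (0.939) and Peli1 (0.937). Cebpb ran with Map3k6 (0.965) and Maff (0.956), and Zbtb16 with Osgin1 (0.946). Klf9 ran with Nufip1 (0.967), Klf15 with Foxk1 (0.965). For Nr3c1 the highest were lower, Kank3 at 0.896 and Ywhag at 0.847.

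Genes for the proteins that activate the hormone or hold and assist the receptor went both ways. Of 18 listed 14 were tested, and their median diet difference was −0.07 in WT and 0.02 in KO. In WT 1 fell and 1 rose, beside 2.99% of all tested genes called lower and 3.07% higher. Hsd11b1, the enzyme that regenerates active glucocorticoid inside cells, fell by 0.72 in WT (SE 0.17, limma adjusted p = 0.0266) and was at −0.11 in KO (adjusted p = 0.772), and the difference between these did not pass (0.61, adjusted p = 0.392). Bag1, a co-chaperone, rose by 0.26 in WT (adjusted p = 0.0465). In KO the constitutive chaperone Hspa8 fell by 0.43 (adjusted p = 0.0425). Averaged over genotypes 4 of the 14 fell and 1 rose, beside 13.7% of all tested genes called in either direction. Hsp90aa1, the inducible Hsp90, fell by 1.47 (SE 0.35, adjusted p = 0.0160), and Nr3c2, the related mineralocorticoid receptor, rose by 0.51 (adjusted p = 0.0490).

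Other genes known to respond to glucocorticoids were lower as well. Of 30 listed 29 were tested. In WT 14 fell and 0 rose, with a median of −0.80, where 2.99% of all tested genes were called lower. In KO 9 fell and 1 rose, with a median of −0.65, where 1.88% of all were called lower and 2.66% higher. The list was drawn up with earlier results of these data known, so its direction is not independent evidence. In WT the largest falls were in Depp1 (−3.97, adjusted p = 0.00100), Lcn2, an iron-carrier binding protein, and the metallothioneins Mt2 (−2.66) and Mt1 (−2.37). Lcn2 passed (adjusted p = 0.0141), but its WT mean on high fat diet, 3.24, lay below the signal filter, so the size of its fall is uncertain. In KO the largest were in Depp1 (−3.14), the cell cycle inhibitor Cdkn1a (−2.55), Rgs2 (−1.62) and the muscle ubiquitin ligase Fbxo32 (−1.58), while the riser was Anxa1, an anti-inflammatory annexin (0.998, adjusted p = 0.00858). Between genotypes 0 of 29 passed on normal diet and 1, Anxa1, was higher in KO on high fat diet (0.96, adjusted p = 0.0306). Over all tested genes, 0.414% were called between genotypes on normal diet and 0.732% on high fat diet. Averaged over genotypes 20 fell and 1 rose, beside 6.19% of all tested genes called lower. The falls were led by Depp1 (−3.55), Cdkn1a (−2.34), Lcn2 (−1.97) and Mt2 (−1.74). In KO alone Lcn2 was at −0.37 and Mt2 at −0.82, and neither passed (adjusted p = 0.823 and 0.438). None of the 29 passed in the test of whether the diet effect depended on genotype, with 0.96 for Anxa1 (adjusted p = 0.209). In that test 0.141% of all genes were called.

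**Figure D4:**
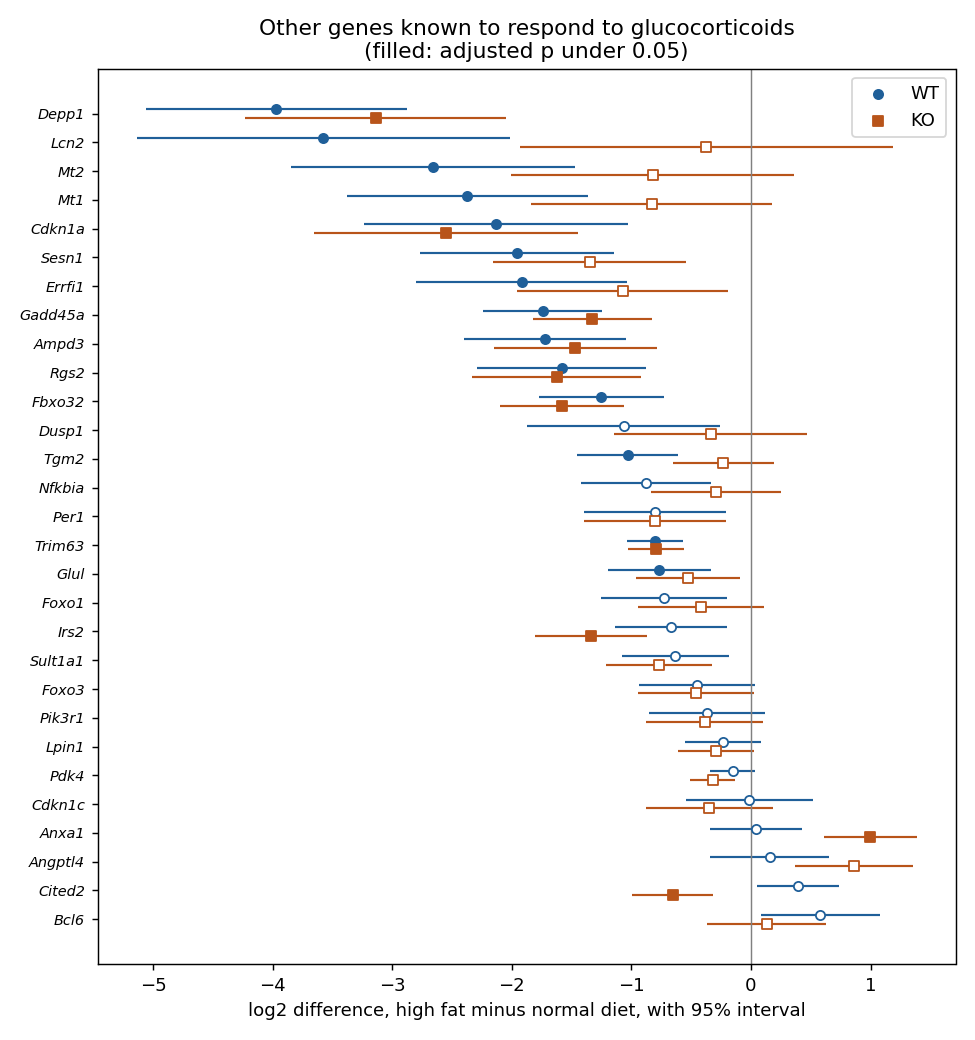
Log2 difference, high fat minus normal diet (horizontal axis), with 95% intervals for 29 other genes known to respond to glucocorticoids, in WT (blue circles) and KO (orange squares), sorted by the WT value. Filled symbols passed an adjusted p of 0.05 in limma, 14 in WT (0 higher) and 10 in KO (1 higher, Anxa1).

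Relatives of the members in the same protein families did not fall as a group. Of 25 listed 23 were tested, with a median diet difference of 0.01 in WT and −0.07 in KO. Over all tested genes, 2.99% were called lower and 3.07% higher in WT, and 1.88% and 2.66% in KO. In WT 2 fell, the Krüppel-like factors Klf6 (−1.31, limma adjusted p = 0.0185) and Klf5 (−1.26, adjusted p = 0.0409), and 1 rose, the C/EBP relative Ddit3 (0.72, adjusted p = 0.0336). In KO 2 fell, Klf6 (−1.24) and Klf10 (−0.92), and 0 rose. Averaged over genotypes 3 fell and 3 rose, beside 13.7% of all tested genes called in either direction. Nr3c2 stands in this list and in that of the receptor's helpers, and Per1 stands among both the other targets and the clock genes.

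Markers of other cell types in KO, and clock and immediate early genes in both genotypes, also moved with the diet, and their part in the member results was not tested. For the counts below, 2.99% of all tested genes were called lower and 3.07% higher in WT, and 1.88% and 2.66% in KO. Skeletal muscle markers had 0 of 10 called in WT and 0 in KO. Averaged over genotypes 2 of them were called higher, beside 13.7% of all tested genes called in either direction. Macrophage markers (9 of 10 tested) had 0 called in WT and 4 higher in KO, with summed linear signals of 3802 to 4273 in WT on normal diet, 2237 to 4746 in WT on high fat diet, 2650 to 3494 in KO on normal diet and 4455 to 8057 in KO on high fat diet. Fibroblast markers had 0 of 8 called in WT and 4 higher in KO, with sums of 9747 to 10829, 8120 to 12228, 10337 to 11202 and 13356 to 18759 in the same order of groups. Adipocyte markers had 0 of 8 called in WT and 1 higher in KO. The adipocyte sum was 20923 to 22755 in WT on normal diet, 22407 to 29715 in WT on high fat diet, 20445 to 24723 in KO on normal diet and 29313 to 30151 in KO on high fat diet. In WT 8 of the 9 macrophage markers were lower in mean, with a median of −0.35, beside 0.04 over all tested genes. Of 7 endothelial markers Kdr rose in WT (1.24) and 0 were called in KO, with sums of 890 to 1527 over all mice. Of 8 lymphocyte and granulocyte markers 3 passed the filter, of which Ptprc rose in KO (1.22) and 0 were called in WT, and of 5 erythroid markers 1 passed and 0 were called. Of 16 clock genes Dbp and Per3 rose in both genotypes. Dbp rose by 1.89 in WT and 2.44 in KO, and Per3 by 1.55 and 1.72. In KO Arntl (−1.79) and Nfil3 (−1.57) fell. In WT they were at −1.29 and −0.18 without passing (limma adjusted p = 0.0594 and 0.720). Averaged over genotypes 5 of the 16 fell, namely Arntl (−1.54), Nfil3 (−0.88), Per1 (−0.80), Cry2 (−0.58) and Clock (−0.57). There 3 rose, Dbp (2.17), Per3 (1.64) and Nr1d2 (0.39), beside 13.7% of all tested genes called in either direction. Immediate early genes, which respond within minutes to stress or handling, had 10 of 19 lower in WT, led by Atf3 (−2.53), Maff (−2.47), Btg2 (−2.30) and Egr1 (−1.93), and 5 lower in KO, led by Btg2 (−2.09) and Maff (−1.95).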

How the data were processed

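Muscle RNA of 12 mice was hybridised to Affymetrix mouse arrays, 1 array per mouse. The authors deposited log2 values of MAS5 signals, per the labels and the submitters' processing notes; no genome build applies to them. Probe sets were named through the platform annotation: of 45037 that were not controls, 34945 had 1 gene symbol, 932 several and 9160 none. Values were used as deposited, with no further scaling. Each gene was represented by its brightest probe set, and 11345 genes had a mean log2 value above 3.78, the median of the non-control probe sets. Limma 3.58.1 (R 4.3.3) fitted the 4 groups together with an intensity trend, with p-values adjusted by Benjamini-Hochberg over all tested genes in each comparison and called under 0.05. The number of arrays limits the precision. The fit was tested on simulated data in which each gene had the same spread in all groups and genes varied independently. Unequal spreads, as seen for Ddit4 and Cebpd, were not simulated. In each list up to 4 called genes with the largest differences were named per comparison, and the 3 closest genes by Pearson's r were listed for each member, some of which are left out of the text. The members and lists were chosen with earlier results of these data known. Alternatives changed the offset, filter, normalization, trend, array weights, groups fitted, probe set, covariate and each replicate.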

Additional observations from a re-analysis of the deposited data

How the results depend on the processing

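No paired analysis was possible because mouse numbers differ among the groups. Of the calls among the 10 genes, the WT count of 9 became 4 with the 3′ over 5′ covariate and ran from 4 to 9 with 1 mouse left out; the KO count of 6 became 2 without the intensity trend and ran from 2 to 6; the averaged count of 9 stayed 9 with any mouse left out. On normal diet the genotype count of 0 became 1 (Cebpb) with the 75th percentile filter, with quantile normalization and with array weights (adjusted p = 0.0495, 0.0364 and 0.0309), and ran from 0 to 1 with 1 mouse left out. On high fat diet the genotype count, and the count for the difference between diet effects, were 0 in all alternatives run. Median centring moved the all-gene median of the KO diet effect from 0.05 to −0.06; no called member changed direction in any alternative. Among values that were not called, the sign turned as follows, and the cause was not tested. With the second probe set, Nr3c1 was at 0.0086 in the KO diet effect, −0.044 between genotypes on normal diet and 0.051 averaged; Cebpd was at 0.63 between genotypes on normal diet, Fkbp5 at 0.27 on high fat diet and Zbtb16 at −0.19 for the difference between diet effects. With the covariate, Nr3c1 was at 0.0097 averaged. Between genotypes on high fat diet, Sgk1 was at 0.044 (quantile) and 0.014 (array weights), Klf15 at 0.0033 (array weights) and Tsc22d3 at −0.045 (median centring). For the difference between diet effects, Cebpd was at 0.021 (offset), 0.024 (quantile), 0.0028 (array weights) and 0.19 (covariate), and median centring gave −0.030 for Ddit4 and −0.017 for Klf9. With 1 mouse left out, the difference between diet effects ran from −0.52 to 0.45 for Cebpd, −0.78 to 0.68 for Ddit4, −0.036 to 0.18 for Klf9 and −0.0042 to 0.59 for Sgk1. The genotype difference on high fat diet ran from −1.06 to 0.40 for Ddit4, −0.35 to 0.14 for Klf15, −0.19 to 0.030 for Klf9, −0.26 to 0.33 for Sgk1 and −0.10 to 0.20 for Tsc22d3. Nr3c1 ran from −0.089 to 0.038 averaged, −0.013 to 0.24 in WT and −0.034 to 0.20 between genotypes on normal diet.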
